A study of Mus musculus with 3 samples.

Results

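The ephrin, Slit-Robo and netrin guidance genes were followed in RNA-seq gene counts from mouse cortical neurons. The members were a list of 41 guidance ligands and receptors, matched by symbol to the Ensembl identifiers of the files. Of these, 40 were found among 54232 identifiers, and Ntn3 was not analysed here. The 40 genes were 5 ephrin-A ligands, 3 ephrin-B ligands, 9 EphA receptors, 5 EphB receptors, 3 Slit ligands, 4 Robo receptors, 2 secreted netrins, 2 netrin-G proteins and 7 netrin receptors. A filter of at least 1 CPM (counts per 1000000 counts) in at least 1 library kept 36 of them, out of 13884 genes in all.

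There were 3 libraries, 1 per group. In the IKVAV PA + PEDOT-S group the neurons had a peptide amphiphile (PA, a peptide with a fatty tail) named for IKVAV, a short stretch of the matrix protein laminin, together with a component that the title calls PS2 and the library name PEDOT-S_OH. PEDOT-S is a conducting polymer with sulfonate side groups, and both names are taken here to mean it. The IKVAV PA group had the peptide amphiphile without that component, and the control group is named PDL, which the labels do not spell out. The IKVAV PA + PEDOT-S and IKVAV PA libraries are together called the PA libraries. All groups were wildtype CD1 cortical neurons, CD1 being an outbred mouse stock. The labels give no age, time in culture or number of animals per library, and the treatment field has the same entry for all 3 libraries, the control included, so groups rest on titles and library names. Total counts were 79057998 for IKVAV PA + PEDOT-S, 124425958 for IKVAV PA and 78993105 for the PDL control. Each library is repeat 3 of its group, so no test between groups was possible, all differences describe these libraries alone, and all intervals cover counting error only.

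Growth cones steer by cues that attract or repel them. Ephrins are cell-bound ligands of the Eph receptor tyrosine kinases: ephrin-A proteins hang on the membrane by a lipid anchor and mainly bind EphA receptors, while ephrin-B proteins cross the membrane and mainly bind EphB receptors, and both partners can signal. Slit proteins are secreted and repel axons through Robo receptors, and netrins attract through Dcc or Neo1 and repel when Unc5 receptors take part. In the developing cortex these systems guide callosal, corticothalamic and corticofugal axons, and several of them later act at synapses.

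Most guidance genes lay close together in the 3 libraries, as did most genes tested, and the exceptions were few. By the rule given below, 2 of 36 members (5.56%) were lower in IKVAV PA against the PDL control, beside 3.42% of all genes tested. In IKVAV PA + PEDOT-S against the PDL control 0 members were lower, beside 3.76% of all genes tested. Ntn1, the attractant netrin-1, was 1.56-fold lower with IKVAV PA + PEDOT-S and 1.61-fold lower with IKVAV PA, each against the PDL control. Epha2, an Eph receptor of epithelial cells, was 2.01-fold and 2.90-fold lower in the same comparisons, from few counts. It passed the filter only through the PDL control library, where it is highest, so some difference was built into its selection. The most abundant ligands and receptors, such as Efnb3, Efnb2, Neo1, Epha5 and Robo2, differed by at most 0.17 on the log2 scale in any comparison.

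A gene was counted as higher or lower when its 95% counting interval lay wholly beyond 1.5-fold. By this rule, in IKVAV PA + PEDOT-S against the PDL control 0 of 36 members were higher and 0 were lower, beside 0.447% and 3.76% of all genes tested (4.21% in either direction). In IKVAV PA against the PDL control 0 were higher, beside 0.54% of all genes, and 2 were lower, Ntn1 and Epha2, beside 3.42% (3.96% in either direction). That share of 5.56% of the members is near the background, and Epha2 passed the filter only through the PDL control library. Between IKVAV PA + PEDOT-S and IKVAV PA no member passed in either direction, beside 0.331% higher and 2.02% lower over all genes (2.35% in either direction). Median log2 ratios of the 36 members were -0.01, -0.02 and 0.05 in these comparisons, beside -0.00, 0.00 and 0.01 over all genes tested. The comparisons against PDL share the control library, and those with IKVAV PA share that library.

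**Figure D1:**
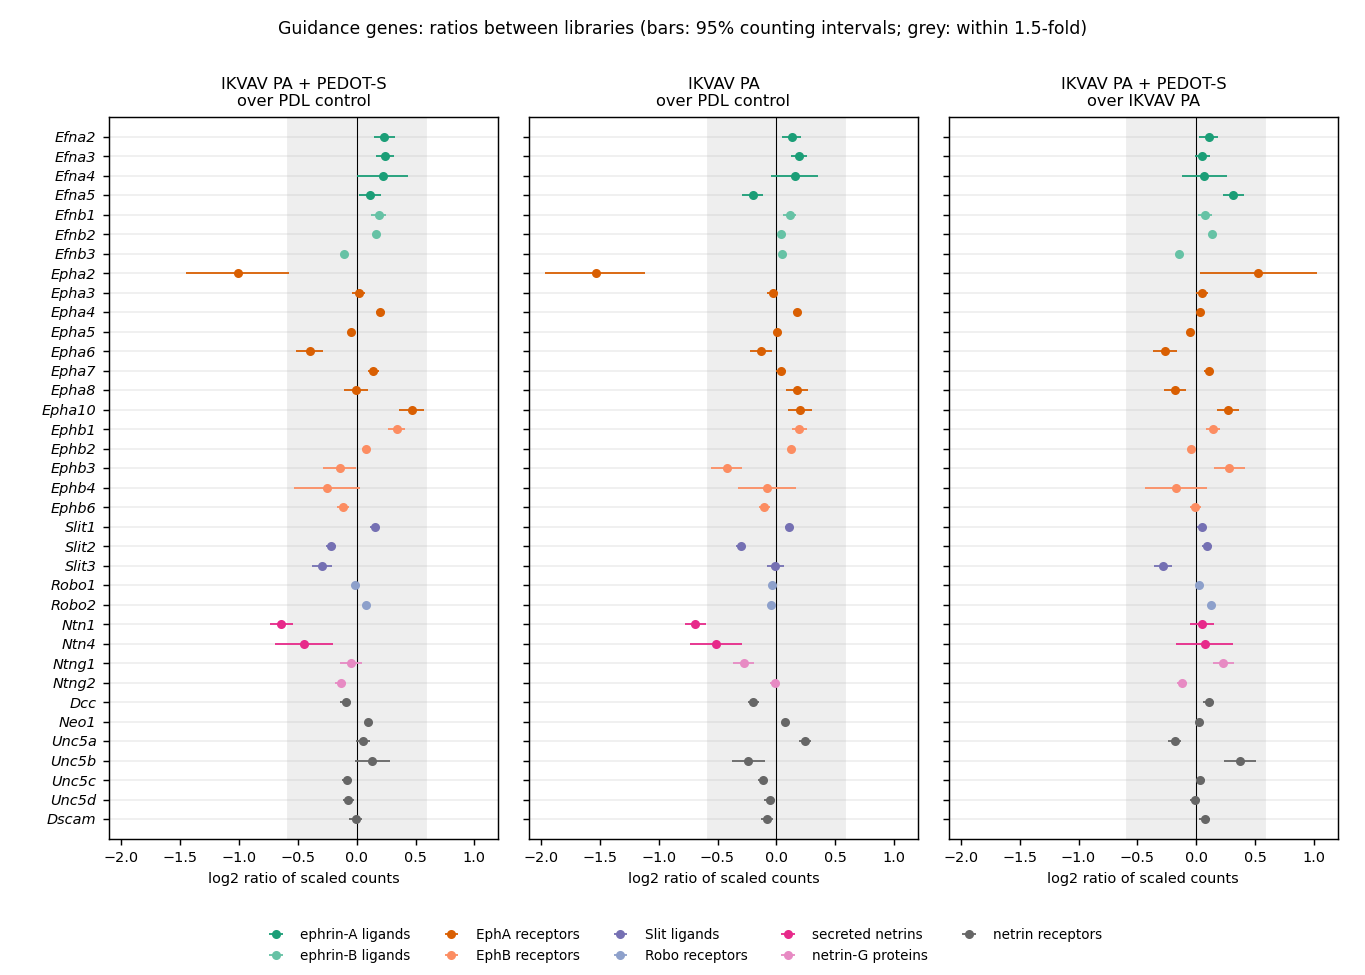
Log2 ratios of scaled counts for the 36 guidance genes past the filter, 1 row per gene, in the 3 comparisons, coloured by role. Points are ratios of single libraries, bars are 95% counting intervals and the grey band marks 1.5-fold. Epha2 and Ntn1 are farthest left in both comparisons with the PDL control, at -1.01 and -0.64 with PEDOT-S and at -1.53 and -0.69 without it.

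**Figure D2:**
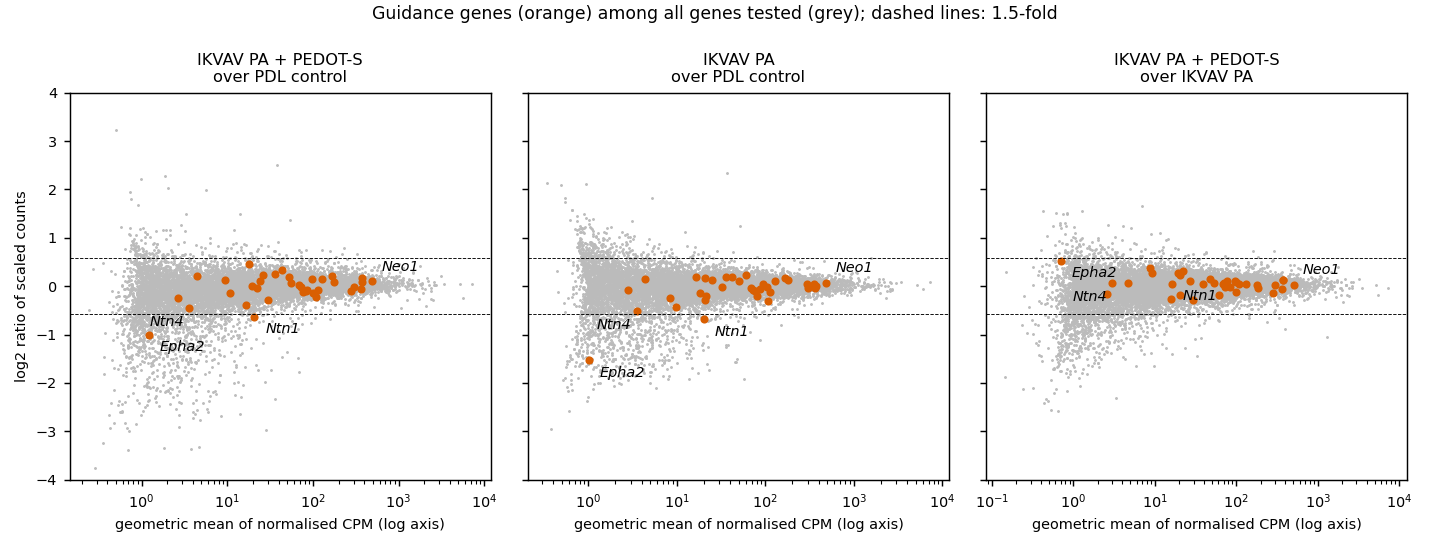
Log2 ratio against the geometric mean of normalised CPM (log axis) for all 13884 genes tested in grey and the guidance genes in orange, with dashed lines at 1.5-fold. The members sit within the cloud of genes of like level, and Epha2 lies at its low-level end, where ratios scatter most.

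Because ratios scatter more at low levels, the members were also set beside genes of at least 10 CPM in the PDL control. Of 31 such members, 1 (3.23%) had a ratio of 1.5-fold or more in IKVAV PA + PEDOT-S against the PDL control, beside 1.96% of 9340 genes. In IKVAV PA against the PDL control it was again 1 member, beside 1.79% of genes. That member was Ntn1 both times. Ratios within 1.2-fold were held by 26 of 31 members (83.9%) in the first comparison and 27 of 31 (87.1%) in the second, beside 89.6% and 92.1% of the genes. Between IKVAV PA + PEDOT-S and IKVAV PA, 0 such members had a ratio of 1.5-fold or more, beside 0.899% of genes. There 26 of 31 members (83.9%) were within 1.2-fold, beside 91.2% of genes. Median absolute log2 ratios of these members were 0.11, 0.12 and 0.10 in the 3 comparisons, beside 0.09, 0.08 and 0.09 for the genes.

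The ephrin-A ligands past the filter had higher values in both PA libraries than in the PDL control library, except Efna5. Efna3, the most abundant of them per length, had 39.8 CPM in the IKVAV PA + PEDOT-S library and 38.4 CPM in the IKVAV PA library, against 33.6 CPM in the PDL control library. Its log2 ratios to the PDL control were 0.24 (0.17 to 0.32) and 0.19 (0.12 to 0.26). It shares 14.1% of its exonic bases with another gene. How reads there were assigned is not known, so its count may be too high or too low. Efna2 followed the same order at 28.1, 26.2 and 23.9 CPM, as did Efna4 at 4.84, 4.62 and 4.16 CPM. Not all of this order was beyond counting error. The intervals for IKVAV PA + PEDOT-S against IKVAV PA included no difference for Efna3 (0.05, -0.01 to 0.12) and Efna4 (0.07, -0.12 to 0.26). So did that of Efna4 for IKVAV PA against the PDL control (0.15, -0.04 to 0.35). Efna4 also shares 10.5% of its exonic bases. Efna5, a repellent in the mapping of sensory projections, stood at 24.9, 20.0 and 23.04 CPM, lowest in the IKVAV PA library, and its log2 ratio of IKVAV PA + PEDOT-S to IKVAV PA was 0.32 (0.23 to 0.40). None of these differences reached the 1.5-fold bound.

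Efna1 was below the filter, with 13 counts in the IKVAV PA + PEDOT-S library and 14 in the IKVAV PA library against 1 count in the PDL control library. Its log2 ratios to the PDL control were 3.73 (0.99 to 9.13) and 3.16 (0.45 to 8.56). The intervals span a wide range of folds, and a level near 0.1 CPM is near the limit of what these libraries resolve.

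The ephrin-B ligands were among the most abundant guidance genes. Efnb3, which acts as a midline repellent for corticospinal axons, had 269 CPM in the IKVAV PA + PEDOT-S library, 298 CPM in the IKVAV PA library and 289 CPM in the PDL control library. Efnb2, also a ligand in blood vessel growth, had 394, 360 and 351 CPM in the same order. These neighbours in abundance went opposite ways with PEDOT-S: against IKVAV PA the log2 ratio was -0.15 (-0.17 to -0.12) for Efnb3 and 0.13 (0.11 to 0.15) for Efnb2. Efnb1, whose loss disturbs the corpus callosum in mice, was at 55.6, 52.8 and 48.9 CPM. Summed over the 3 genes, ephrin-B ligands made up 718, 711 and 689 CPM.

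Of the 8 EphA receptors past the filter, Epha2 alone passed the 1.5-fold bound, in IKVAV PA against the PDL control. Epha5, a receptor of cortical and limbic axons, had 355 CPM in the IKVAV PA + PEDOT-S library, 369 CPM in the IKVAV PA library and 368 CPM in the PDL control library. Epha4, which binds ephrins of both classes and halts corticospinal axons at the midline, had 181, 177 and 157 CPM in that order. Its log2 ratio to the PDL control was 0.20 (0.17 to 0.24) with PEDOT-S and 0.17 (0.14 to 0.20) without it. Epha7 (101, 94.3 and 91.7 CPM) and Epha3 (70.2, 67.8 and 69.4 CPM) varied less. As a group the 9 EphA receptors summed to 764, 766 and 742 CPM.

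Epha10, which lacks kinase activity, had the highest ratio of any member past the filter in IKVAV PA + PEDOT-S against the PDL control, at 21.2 against 15.3 CPM (log2 ratio 0.47, 0.36 to 0.57), with 17.6 CPM in the IKVAV PA library. Epha6 stood at 14.4, 17.3 and 19.0 CPM, lowest with PEDOT-S, with a log2 ratio of -0.40 (-0.51 to -0.29) to the PDL control. Epha8 stood at 19.3 CPM in the IKVAV PA + PEDOT-S library, 21.8 CPM in the IKVAV PA library and 19.3 CPM in the PDL control library. Epha1, a receptor of epithelia, was below the filter in each library, with 16, 18 and 11 counts.

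Epha2 had 67 counts (0.856 CPM, exact 95% Poisson interval 0.663 to 1.09) in the IKVAV PA + PEDOT-S library and 74 counts (0.594 CPM, 0.466 to 0.745) in the IKVAV PA library, against 137 counts (1.72 CPM, 1.44 to 2.03) in the PDL control library. The log2 ratio to the PDL control was -1.53 (-1.96 to -1.12) for IKVAV PA, past the bound, and -1.01 (-1.45 to -0.57) for IKVAV PA + PEDOT-S, which just missed it and passed with libraries scaled by total counts alone. The gene passed the filter only through the PDL control library, where it is highest, so some difference was built into its selection. In bulk RNA, fewer cells that make a transcript and less of it per cell cannot be told apart. The gene lies on chromosome 4 at 141301240 to 141329384 on the plus strand (GRCm38).

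The promoter of Epha2 is shown because it is the member past the bound with an entry in the RefSeq promoter table, and that of Efnb2 because it is abundant, level and holds the same motif. Ntn1 has no entry. Both sequences are the 250 bases before the annotated start (RefSeq, GRCm38.p6), 5′ to 3′ on the strand of the gene, Epha2 at chr4:141300971-141301220 on the plus strand and Efnb2 at chr8:8661243-8661492 on the minus strand. Capitals mark GGAATG, the core recognised by TEAD factors, on either strand, where the reverse complement reads CATTCC.
Epha2: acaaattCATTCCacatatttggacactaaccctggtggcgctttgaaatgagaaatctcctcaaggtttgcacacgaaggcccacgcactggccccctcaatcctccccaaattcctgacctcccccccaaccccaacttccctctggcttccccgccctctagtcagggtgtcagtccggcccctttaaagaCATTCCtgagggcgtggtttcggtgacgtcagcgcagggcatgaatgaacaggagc
Efnb2: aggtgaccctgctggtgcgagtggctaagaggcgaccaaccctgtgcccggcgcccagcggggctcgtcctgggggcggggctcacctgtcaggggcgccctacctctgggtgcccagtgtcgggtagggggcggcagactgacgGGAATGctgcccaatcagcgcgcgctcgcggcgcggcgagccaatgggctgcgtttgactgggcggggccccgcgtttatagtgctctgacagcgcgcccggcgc
The window of Epha2 holds 2 matches, starting 243 and 56 bases before the start, and that of Efnb2 holds 1, at 105 bases before it. Of 32851 promoter windows of this length, 12.6% hold at least 1 match and 1.02% hold 2 or more. Of the 35 members with an entry (40 windows), 5 have a match, in 5 windows: Epha2, Efnb2, Epha3, Ntng1 and Epha1. Their log2 ratios in IKVAV PA against the PDL control were -1.53 for Epha2, 0.04 for Efnb2, -0.03 for Epha3 and -0.28 for Ntng1, with Epha1 below the filter. The Epha2 window also holds the cAMP response element TGACGTCA, at 33 bases before the start, which no other member's window holds and 1.55% of all windows do. The AP-1-type motif TGANTCA, with N any base, was searched as well. It stood in 0 of the 40 windows of the 35 members and in 6.75% of all windows. Matches were searched on both strands, the motifs do not overlap here, and a match describes letters, not binding.

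The EphB receptors stayed within the bound. Ephb2, which clusters NMDA receptors at synapses, had 182 CPM in the IKVAV PA + PEDOT-S library, 187 CPM in the IKVAV PA library and 171 CPM in the PDL control library. Ephb6, a kinase-dead receptor and the highest of the group per length, had 73.7, 74.1 and 79.6 CPM. Ephb1, which steers retinal axons at the chiasm, was highest with PEDOT-S and lowest in the PDL control, at 49.7, 44.9 and 39.3 CPM. Its log2 ratio to the PDL control was 0.34 (0.27 to 0.41) with PEDOT-S. Ephb3, which acts with Ephb2 in forming the corpus callosum, was lowest in the IKVAV PA library, at 10.2, 8.40 and 11.3 CPM. Its log2 ratio to the PDL control was -0.42 (-0.55 to -0.29) for IKVAV PA and -0.14 (-0.28 to -0.00) for IKVAV PA + PEDOT-S. Ephb4, the vascular partner of Efnb2, was low at 2.43, 2.73 and 2.89 CPM. The 5 receptors together summed to 318, 317 and 304 CPM.

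The Slit ligands did not move together. Slit1, a Slit found mainly in the nervous system, was highest with PEDOT-S, at 136 CPM in the IKVAV PA + PEDOT-S library, 132 CPM in the IKVAV PA library and 122 CPM in the PDL control library. Slit2, a repellent made by midline and septal cells as well as neurons, was lower in both PA libraries, at 102 and 95.6 CPM against 118 CPM, with log2 ratios to the PDL control of -0.21 (-0.26 to -0.17) and -0.30 (-0.34 to -0.26). Slit3 stood at 26.7 CPM with PEDOT-S, 32.6 CPM on IKVAV PA and 32.8 CPM in the PDL control library. None passed the bound, and their sum was 264, 260.0 and 273 CPM.

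Their receptors Robo1 and Robo2 were nearly level. Robo1 had 302 CPM in the IKVAV PA + PEDOT-S library, 298 CPM in the IKVAV PA library and 305 CPM in the PDL control library. Robo2 had 389.6, 358 and 369 CPM in that order, a log2 ratio of 0.12 (0.10 to 0.14) for IKVAV PA + PEDOT-S against IKVAV PA. Robo3, which lets commissural axons cross the midline, was below the filter with 43, 87 and 52 counts.

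Robo4, a receptor of endothelial cells, had 9 counts in the IKVAV PA + PEDOT-S library and 4 in the IKVAV PA library, against 0 in the PDL control library. A count of 0 allows a level of up to 3 counts, or 0.0377 CPM, in the control library. The 95% counting interval of the log2 ratio of IKVAV PA + PEDOT-S to the PDL control reached down to 1.01, and that of IKVAV PA to the PDL control included no difference. The 8 endothelial markers listed summed to 4.16 CPM in the IKVAV PA + PEDOT-S library and 4.75 CPM in the IKVAV PA library, against 7.43 CPM in the PDL control library. Among them Cdh5, the cadherin of endothelial junctions, had 2, 2 and 1 counts in that order. The part of these cells in the Robo4 counts was not tested.

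The secreted netrins had the lowest ratios to the PDL control of any role group in both PA libraries. Ntn1 had 1301 counts (16.6 CPM, exact 95% Poisson interval 15.7 to 17.5) in the IKVAV PA + PEDOT-S library and 1999 counts (16.0 CPM, 15.3 to 16.8) in the IKVAV PA library, against 2060 counts (25.9 CPM, 24.8 to 27.0) in the PDL control library. Both PA libraries were low and the control high. The counting intervals of the PA libraries did not overlap that of the control. This also held for many members within the bound, such as Epha4, Slit1, Slit2, Efna3, Neo1 and Dcc, so it does not set Ntn1 apart. The share of all genes with such intervals was not counted. The log2 ratio to the PDL control was -0.69 (-0.78 to -0.60) for IKVAV PA, past the bound, and -0.64 (-0.74 to -0.54) for IKVAV PA + PEDOT-S, where the interval crossed the bound of 0.585. Between IKVAV PA + PEDOT-S and IKVAV PA it had a log2 ratio of 0.05 (-0.05 to 0.15). Ntn1 lies on chromosome 11 at 68209364 to 68400823 on the minus strand (GRCm38) and shares no exonic bases with another annotated gene.

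Ntn4, a netrin of basement membranes that binds laminin, lay the same way at lower levels, with 242 counts (3.09 CPM) in the IKVAV PA + PEDOT-S library and 367 counts (2.94 CPM) in the IKVAV PA library, against 335 counts (4.21 CPM) in the PDL control library. Its log2 ratios to the PDL control, -0.44 (-0.69 to -0.20) and -0.51 (-0.73 to -0.30), did not pass. Together the secreted netrins gave 19.7, 19.0 and 30.1 CPM, and Ntn1 made up 76.2%, 76.5% and 78.6% of their summed level per length.

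The netrin-G proteins are lipid-anchored relatives that bind NGL proteins at synapses rather than Dcc. Ntng2 had 95.8 CPM in the IKVAV PA + PEDOT-S library, 104 CPM in the IKVAV PA library and 105 CPM in the PDL control library, with 13.99% of its exonic bases shared. Ntng1 was lowest on IKVAV PA, at 22.1, 18.9 and 22.8 CPM in that order. Its log2 ratio was -0.28 (-0.37 to -0.19) for IKVAV PA against the PDL control and 0.23 (0.14 to 0.32) for IKVAV PA + PEDOT-S against IKVAV PA. Neither passed the bound.

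The receptors of netrin were present in all libraries, and none passed the bound. Neo1 (neogenin), which also binds RGM proteins, was the most abundant receptor of the whole list per length, with 511 CPM in the IKVAV PA + PEDOT-S library, 502 CPM in the IKVAV PA library and 477 CPM in the PDL control library. Dcc, the main attractive netrin receptor, had 80.5, 74.97 and 85.9 CPM, and its log2 ratio to the PDL control was -0.09 (-0.14 to -0.04) with PEDOT-S and -0.20 (-0.24 to -0.15) without. Dscam, a homophilic adhesion protein that can also bind netrin, had 73.3, 69.8 and 73.7 CPM. These receptors differed from the control by less than their ligand Ntn1 did.

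The repulsive Unc5 receptors differed in small ways. Unc5c stood at 110.2, 108 and 117 CPM in the IKVAV PA + PEDOT-S, IKVAV PA and PDL control libraries, and Unc5d, a marker of upper-layer and migrating neurons, at 84.2, 84.9 and 88.4 CPM. Unc5a was highest on IKVAV PA, at 57.2, 64.9 and 55.0 CPM in that order, with a log2 ratio of 0.24 (0.19 to 0.29) to the PDL control. Unc5b, also an endothelial receptor, was lowest there, at 9.99, 7.72 and 9.11 CPM. Its log2 ratio of IKVAV PA + PEDOT-S to IKVAV PA, 0.37 (0.23 to 0.51), was the highest of the 36 members after that of Epha2 (0.53, 0.03 to 1.02). The 7 netrin receptors summed to 926, 912 and 906 CPM.

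**Figure D3:**
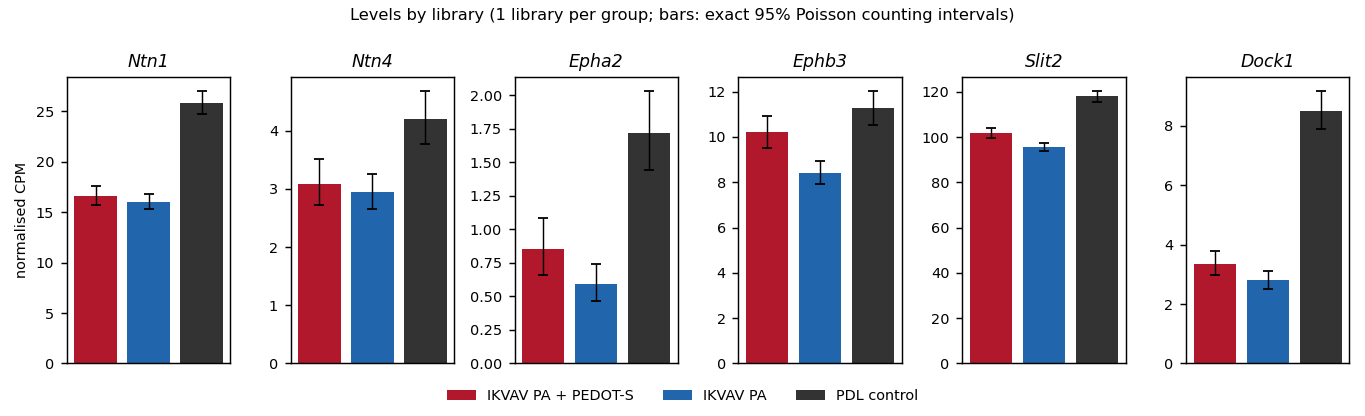
Normalised CPM in each library of the secreted netrins, Epha2, Ephb3, Slit2 and the netrin signalling partner Dock1, with exact 95% Poisson counting intervals. The genes were picked as lower in the PA libraries than in the PDL control, and members that were higher there, such as Epha10 and Ephb1, are not shown. Ntn4, Ephb3 and Slit2 did not pass the 1.5-fold bound in any comparison. Ntn1 stands at 16.6 and 16.0 CPM in the PA libraries against 25.9 CPM in the PDL control, and Dock1 at 3.36 and 2.80 CPM against 8.51 CPM.

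Per length of merged exons, the order of the guidance genes was much the same in each library. Efnb3 was highest, at 84.5 CPM per kilobase in the IKVAV PA + PEDOT-S library, 93.7 in the IKVAV PA library and 90.9 in the PDL control library. Neo1 (58.6, 57.6 and 54.8), Efnb2 (57.4, 52.5 and 51.2) and Ntng2 (24.0, 26.1 and 26.4 CPM per kilobase) followed in this order in all 3 libraries. Neo1 and Efnb2 are close neighbours whose order is that of 1 choice of length: per length of the longest coding transcript Efnb2 came before Neo1. Slit1, Epha5, Robo2, Epha4 and Ephb6 lay between 19.5 and 22.97 CPM per kilobase and changed places among the libraries. This too depended on the length used. Per length of the longest coding transcript, Epha5 was at place 5, Robo2 at 6, Epha4 at 8, Slit1 at 9 and Ephb6 at 10 in each library. Per length of merged exons Ntn1 moved most, at place 31 and 29 of 40 in the PA libraries and place 26 in the PDL control. Epha2 was last of the genes past the filter in each library, at 0.183, 0.127 and 0.368 CPM per kilobase.

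**Figure D4:**
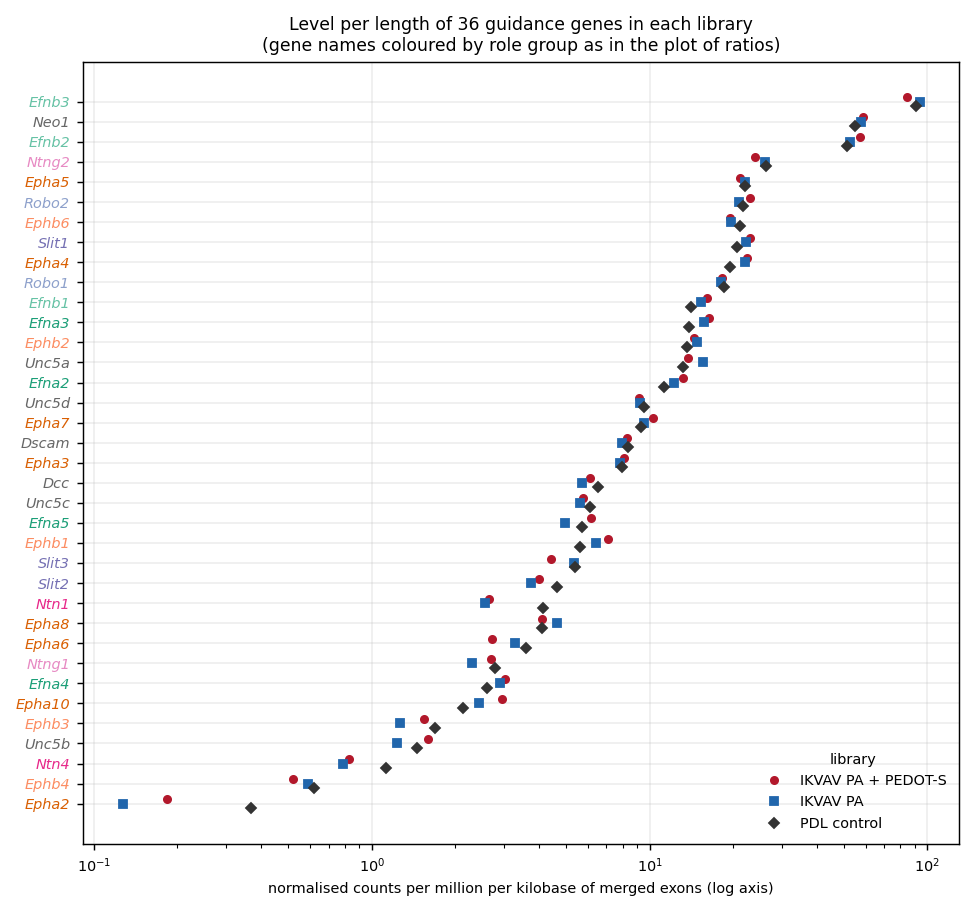
Normalised CPM per kilobase of merged exons (log axis) for the 36 guidance genes past the filter in each library, sorted by the PDL control. The 3 markers of a gene nearly coincide from Efnb3 at the top, near 90 CPM per kilobase in the PDL control, down to low levels, and part most for Ntn1 and Epha2.

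Of 60 further genes listed as partners of these receptors in signalling, 58 passed the filter. In IKVAV PA + PEDOT-S against the PDL control 2 were lower and 0 higher, beside 3.76% and 0.447% of all genes tested. In IKVAV PA against the PDL control 1 was lower and 0 higher, beside 3.42% and 0.54%. Between the PA libraries none passed, beside 2.02% lower and 0.331% higher with PEDOT-S over all genes. Dock1, the exchange factor that activates Rac downstream of Dcc, was lower in both PA libraries, with 263 counts (3.36 CPM) in the IKVAV PA + PEDOT-S library and 349 counts (2.80 CPM) in the IKVAV PA library, against 678 counts (8.51 CPM) in the PDL control library. Its log2 ratios were -1.34 (-1.55 to -1.13) and -1.60 (-1.79 to -1.42). Sdc4, a heparan sulphate proteoglycan of adhesion sites, had 36, 108 and 118 counts in the IKVAV PA + PEDOT-S, IKVAV PA and PDL control libraries, and was lower with PEDOT-S than in the PDL control (-1.69, -2.27 to -1.14). Like Epha2, it passed the filter only through the PDL control library, where it is highest, so some difference was built into its selection.

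The median log2 ratio of all 58 partners was 0.06, 0.03 and 0.03 in IKVAV PA + PEDOT-S against the PDL control, IKVAV PA against the PDL control and IKVAV PA + PEDOT-S against IKVAV PA. Over all genes tested the medians were -0.00, 0.00 and 0.01 in the same order. No Eph or ephrin signalling partner passed, among 18 measured that included the ephexin Ngef, the Rac exchange factor Tiam1 and the protease Adam10. Apart from Sdc4, none of the 18 Slit and Robo partners passed either, the Slit-Robo GTPase activators Srgap1, Srgap2 and Srgap3 included.

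The libraries also differed in markers of other cells, and the part of these in the values of Ntn1, Epha2 and Dock1 was not tested. Markers counted as lower or higher, here and in the next paragraph, are so against the PDL control. Cell cycle genes were lower in the PA libraries, 11 of 12 with PEDOT-S and 12 of 12 without, at a summed level of 56.4 CPM in the IKVAV PA + PEDOT-S library and 58.6 CPM in the IKVAV PA library, against 163 CPM in the PDL control library. Astrocyte markers summed to 352, 331 and 498 CPM, with 5 of 11 lower and 1 higher with PEDOT-S and 8 of 11 lower without. The 1 higher was Gfap, which passed the filter only through the IKVAV PA + PEDOT-S library, and Aqp4, among the 8 lower, passed only through the PDL control library. Progenitor markers summed to 205, 184 and 335 CPM, with 2 of 7 lower in each PA library. Oligodendrocyte precursor markers summed to 15.0, 19.2 and 61.0 CPM (4 of 5 lower in each PA library). Meningeal fibroblast markers summed to 13.8, 28.7 and 63.3 CPM (5 and 3 of 5 lower), with Pdgfra in both lists.

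Pericyte and mural markers had 4 of 4 lower with PEDOT-S and 3 of 4 without, and endothelial markers 2 of 3 and 1 of 3, where Flt1, lower with PEDOT-S, passed the filter only through the PDL control library. Myelin markers went the other way, with 6 of 8 higher with PEDOT-S and 3 of 8 without, at 103, 71.3 and 58.2 CPM. Mal, higher in both comparisons, passed the filter only through the IKVAV PA + PEDOT-S library, where it is highest. Of 8 microglia markers 1 passed the filter. No marker was at 0 in all libraries. The neuron markers, 18 of 18 past the filter, showed the labelled cell type in each library, and none passed the 1.5-fold bound, with sums of 11896, 12139 and 11854 CPM.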

How the data were processed

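The deposited files hold raw counts per Ensembl gene, with no normalisation. Per the submitters' processing notes, the authors used mm10 and the tools HTSeq 2.0.2, STAR 2.7.5, DESeq2 1.14.1 and cutadapt 4.2. For the role of each, the annotation and the strand setting, no source used here gives details, so reads of overlapping or antisense genes cannot be told apart. Per the labels, libraries were made with a total RNA kit, while the molecule field reads polyA RNA.

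GENCODE M21 (GRCm38) gave symbols and merged exon lengths for 54165 of 54232 identifiers. Genes with at least 1 CPM in at least 1 library were kept, and counts were scaled by total and TMM factors (edgeR 4.0.16, R 4.3.3: 0.990 for IKVAV PA + PEDOT-S, 1.00 for IKVAV PA, 1.01 for PDL). Ratios carry exact (Clopper-Pearson) 95% counting intervals, which cover counting error only. List medians use a prior count of 2. The rule was run on simulated Poisson counts, the error model that its intervals assume. Variation between replicates was not simulated, so the run does not bear on it. Alternatives were DESeq2 1.42.0 size factors, unscaled totals, protein-coding TMM factors, other filters, bounds and prior, and thinned libraries. By rule, members past the bound, the highest per length of each role group and partners past the bound were named. Values of the other members, and the names of partners within the bound, were added for description after their values were seen. The members and lists were chosen with earlier results of these data known.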

Additional observations from a re-analysis of the deposited data

How the results depend on the processing

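With 1 library per group, no replicate could be left out. No paired analysis was possible because the groups share only the replicate number 3. Under the settings run, neither Ntn1 nor Epha2 changed the sign of its ratio to the PDL control. This says little, as filters, bounds and the prior cannot turn a sign. The shifts from scaling, given below, were also far smaller than these ratios. In IKVAV PA against the PDL control, 2 lower members became 1 with at least 5 CPM (Ntn1) and 1 with a 2-fold bound (Epha2), and 5 with a 1.2-fold bound, which added Ntn4, Ephb3 and Slit2. In IKVAV PA + PEDOT-S against the PDL control, 0 lower became 1 with total counts (Epha2) and 3 with a 1.2-fold bound (Epha2, Epha6 and Ntn1), and 0 higher became 2 with no filter (Efna1 and Robo4) and 2 with a 1.2-fold bound (Epha10 and Ephb1). Over all genes, the shares lower in IKVAV PA against the PDL control were 2.08% with at least 5 CPM, 1.58% with the 2-fold bound and 6.83% with the 1.2-fold bound. In IKVAV PA + PEDOT-S against the PDL control they were 3.85% lower with total counts, 7.74% lower and 2.61% higher with the 1.2-fold bound, and 0.828% higher with no filter. The other 71 values of counts and medians held, as did 529 ratios of single members, while 11 moved by more than their counting interval. Scaling moved ratios by at most 0.0465 (log2), enough to turn the sign of Epha5 in IKVAV PA against PDL, of Epha3, Epha8, Robo1 and Dscam with IKVAV PA + PEDOT-S over the control, and of Ephb6 and Unc5d between the PA libraries. Leaving out genes that share over 10% of exonic bases was chosen after seeing the data, as was the other transcript length.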

Other observations

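Guidance genes that lie side by side on a chromosome did not always share a level. Robo1 and Robo2 lie 846 kb apart on chromosome 16 and were both abundant, while Robo4 and Robo3 lie 0.553 kb apart on chromosome 9, on opposite strands, and were both below the filter. Efna1, Efna3 and Efna4 lie in 1 row on chromosome 3, with 32.8 kb between Efna1 and Efna3 and 10.4 kb between Efna3 and Efna4. In the PDL control library, levels per length were 0.00686, 13.8 and 2.60 CPM per kilobase for Efna1, Efna3 and Efna4. Ephb2 and Epha8 lie 93.4 kb apart on chromosome 4, at 13.6 and 4.10 CPM per kilobase in the same library. The GC box GGGCGG stood in the 250 bases before the start of 24 of the 35 members with a promoter entry, Efnb2, Epha2, Neo1 and Ntn4 included. Counted by window, as some members have more than 1, it stood in 27 of 40 member windows and in 32.7% of all 32851 windows. The latter were not limited to genes past the filter, as most members were, so the shares are not of like sets.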
